A study of Mus musculus with 6 samples.

Results

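Cells of the brain's blood vessels are held together by tight and adherens junctions, and 9 genes that encode their parts were followed here across brain cell classes and between sham-operated and nephrectomised mice. They were Cldn5, Ocln, Tjp1, Cdh5, Esam, Pecam1, F11r, Jam2 and Ctnnb1, chosen by symbol, and all 9 were found among the 32285 genes of the count tables. The nuclei came from brains of wildtype C57BL/6 mice (the design text names the cortex) collected 6 weeks after sham surgery or after 5/6 nephrectomy, a surgical model of chronic kidney disease in which most kidney tissue is removed. Nuclei were sorted by flow cytometry, and 3 libraries of sham mice and 3 of nephrectomy mice were sequenced with a droplet-based 3′ kit. The labels give neither age nor sex, and do not say whether each library is 1 animal, so p-values measure the spread between these libraries only.

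Claudin-5 and occludin span the membrane at tight junctions, where claudin strands close the gap between neighbouring endothelial cells and so form the core of the blood-brain barrier. ZO-1, the product of Tjp1, ties them to the actin skeleton from inside. The junctional adhesion molecules (F11r encodes JAM-A and Jam2 encodes JAM-B) and ESAM are immunoglobulin-like proteins at the same contacts, and PECAM-1 is an adhesion molecule at endothelial borders that platelets and leukocytes also carry. VE-cadherin, the product of Cdh5, is the cadherin of endothelial adherens junctions and binds β-catenin, the product of Ctnnb1, which is also the transcriptional effector of the Wnt pathway that maintains barrier properties in brain endothelium.

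Nuclear libraries count unspliced as well as spliced RNA, so gene length matters for the level of 1 gene against another. Levels are compared below between classes and libraries within a gene, and where UMIs of several genes are set side by side, it is their proportions that are compared between classes. In GRCm38 (GENCODE M21) Cldn5 is the shortest of the 9, 1.416 kb at chr16:18776847-18778262 on the plus strand. Tjp1 is the longest, 231.617 kb at chr7:65296165-65527781 on the minus strand. Ocln lies at chr13:100496507-100552718 (minus), Cdh5 at chr8:104101625-104144511 (plus) and Esam at chr9:37528078-37538319 (plus). Pecam1 lies at chr11:106654217-106750628 (minus), F11r at chr1:171437535-171464603 (plus), Jam2 at chr16:84774123-84825928 (plus) and Ctnnb1 at chr9:120929216-120960507 (plus).

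RefSeq promoters (GRCm38.p6) were matched for 5 of the 9 genes: Cldn5, Ocln, Tjp1, F11r and Ctnnb1. The 250 bases before the first listed start of 4 of them are printed 5′ to 3′ on the gene's strand, because Cldn5 and Ocln were at or below 16.1 CPM (counts per 1000000 UMIs) in every glia-like and neuron-like sum whereas Tjp1 and Ctnnb1 were detected in every class. Capitals mark CG dinucleotides. The windows are chr16:18776597-18776846 for Cldn5, chr13:100552719-100552968 for Ocln, chr7:65371245-65371494 for Tjp1 and chr9:120933150-120933399 for Ctnnb1. The Tjp1 and Ctnnb1 windows lie inside the annotated genes, before the start of a shorter transcript.
Cldn5: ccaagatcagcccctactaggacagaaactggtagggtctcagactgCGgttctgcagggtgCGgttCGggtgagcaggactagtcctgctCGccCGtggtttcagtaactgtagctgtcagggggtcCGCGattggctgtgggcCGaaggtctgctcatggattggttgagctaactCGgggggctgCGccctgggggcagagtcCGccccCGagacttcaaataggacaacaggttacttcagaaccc
Ocln: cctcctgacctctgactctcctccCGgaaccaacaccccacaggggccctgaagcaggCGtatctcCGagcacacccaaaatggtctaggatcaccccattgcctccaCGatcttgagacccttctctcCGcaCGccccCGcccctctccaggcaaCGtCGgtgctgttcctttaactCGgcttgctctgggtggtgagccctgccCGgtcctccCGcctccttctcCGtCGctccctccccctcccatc
Tjp1: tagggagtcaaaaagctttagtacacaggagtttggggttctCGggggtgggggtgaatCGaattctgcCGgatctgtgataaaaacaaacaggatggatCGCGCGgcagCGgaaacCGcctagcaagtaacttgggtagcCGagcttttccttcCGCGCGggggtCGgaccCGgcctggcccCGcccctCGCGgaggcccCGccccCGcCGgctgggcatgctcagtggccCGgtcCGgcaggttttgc
Ctnnb1: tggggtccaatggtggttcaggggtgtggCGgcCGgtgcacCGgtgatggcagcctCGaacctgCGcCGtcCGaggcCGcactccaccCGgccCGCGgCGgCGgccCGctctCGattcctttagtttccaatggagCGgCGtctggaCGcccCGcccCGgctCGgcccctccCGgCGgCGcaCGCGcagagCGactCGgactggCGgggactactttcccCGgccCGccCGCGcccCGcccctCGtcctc
The Cldn5 window holds 12 CG and the Ocln window 14, against 22 for Tjp1 and 35 for Ctnnb1. The median over the first listed promoters of 27025 genes was 6, with quartiles of 2 and 16. The motif GGAA, searched on both strands as GGAA or TTCC and known as the core bound by ETS factors, was at 0 in the Cldn5 window, at 2 in Ocln, and at 3 in Tjp1, F11r and Ctnnb1. It occurs in 93.4% of all promoters of this length, with a median of 3. These counts describe the letters of these windows only.

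The 6 libraries held 42589 barcodes, of which 40685 nuclei had at least 500 genes and at most 5% mitochondrial unique molecular identifiers (UMIs, 1 per captured RNA molecule). Libraries were uneven: sham 3 and nephrectomy 1 had 14756 and 12637 barcodes, the others 2637 to 5033, and median UMIs per kept nucleus ran from 1001 in nephrectomy 1 to 5353.5 in sham 1. Pairs of libraries shared 1 to 50 barcodes, at most 0.451% of the smaller library. Nuclei were assigned to 9 classes by at least 3 UMIs from at least 2 markers, with no other class above 1 in 3 of that number, and none of the 9 junction genes served as a marker. Classes are therefore called endothelial-like, astrocyte-like and so on, and 19145 nuclei (47.1%) received one. Of 34 markers kept aside, 29 were highest in their own class, and all 5 endothelial ones (Erg, Tie1, Emcn, Podxl and Vwf) were.

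Endothelial-like nuclei numbered 312, which is 0.767% of the kept nuclei. Sham 1, 2 and 3 gave 9, 63 and 140, and nephrectomy 1, 2 and 3 gave 18, 31 and 51. Their summed UMIs ranged from 13554 in sham 1 to 190491 in sham 3. Sums of fewer than 10 nuclei were not tested, so sham 1 entered no endothelial test, and levels in endothelial-like nuclei below are means over 5 libraries. Mural-like nuclei (58 in all) reached 10 in 3 libraries, and fibroblast-like nuclei (40) in sham 3 only. Levels are CPM, the UMIs of a gene scaled to the same total for every class and library (counts per 1000000).

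The 9 junction genes passed the low-count filter and were called higher in endothelial-like nuclei than in the mean of the 8 other classes, at a Benjamini-Hochberg adjusted p under 0.05 in edgeR's quasi-likelihood test; 9.07% of the 15372 genes tested were called higher in that comparison. Ocln passed the filter only through the endothelial-like sums, where it is high, so its call adds no support. The 8 others also passed through the sums of the other classes alone, as did 14701 of all genes, of which 8.32% were called higher. For every gene a single sum above the minimum level was enough there, because fibroblast-like nuclei gave only 1 sum. The highest such sum was a mural-like one for Cldn5 (245 CPM from 3 UMIs) and the fibroblast-like one for Cdh5 (217 CPM). These passes rest on few UMIs and lend little support. The median log2 difference over all 15372 genes was 0.36. Against the 6 classes with at least 10 nuclei in every library, which leaves out the shallow mural-like and fibroblast-like sums and was chosen after the data were seen, the median over all genes was -0.15. In that comparison Ocln did not pass the filter, and Cldn5, Cdh5 and Esam passed only through the endothelial-like sums. The 5 others, Tjp1, Pecam1, F11r, Jam2 and Ctnnb1, were called higher, as were 12.2% of 12290 genes.

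**Figure D1:**
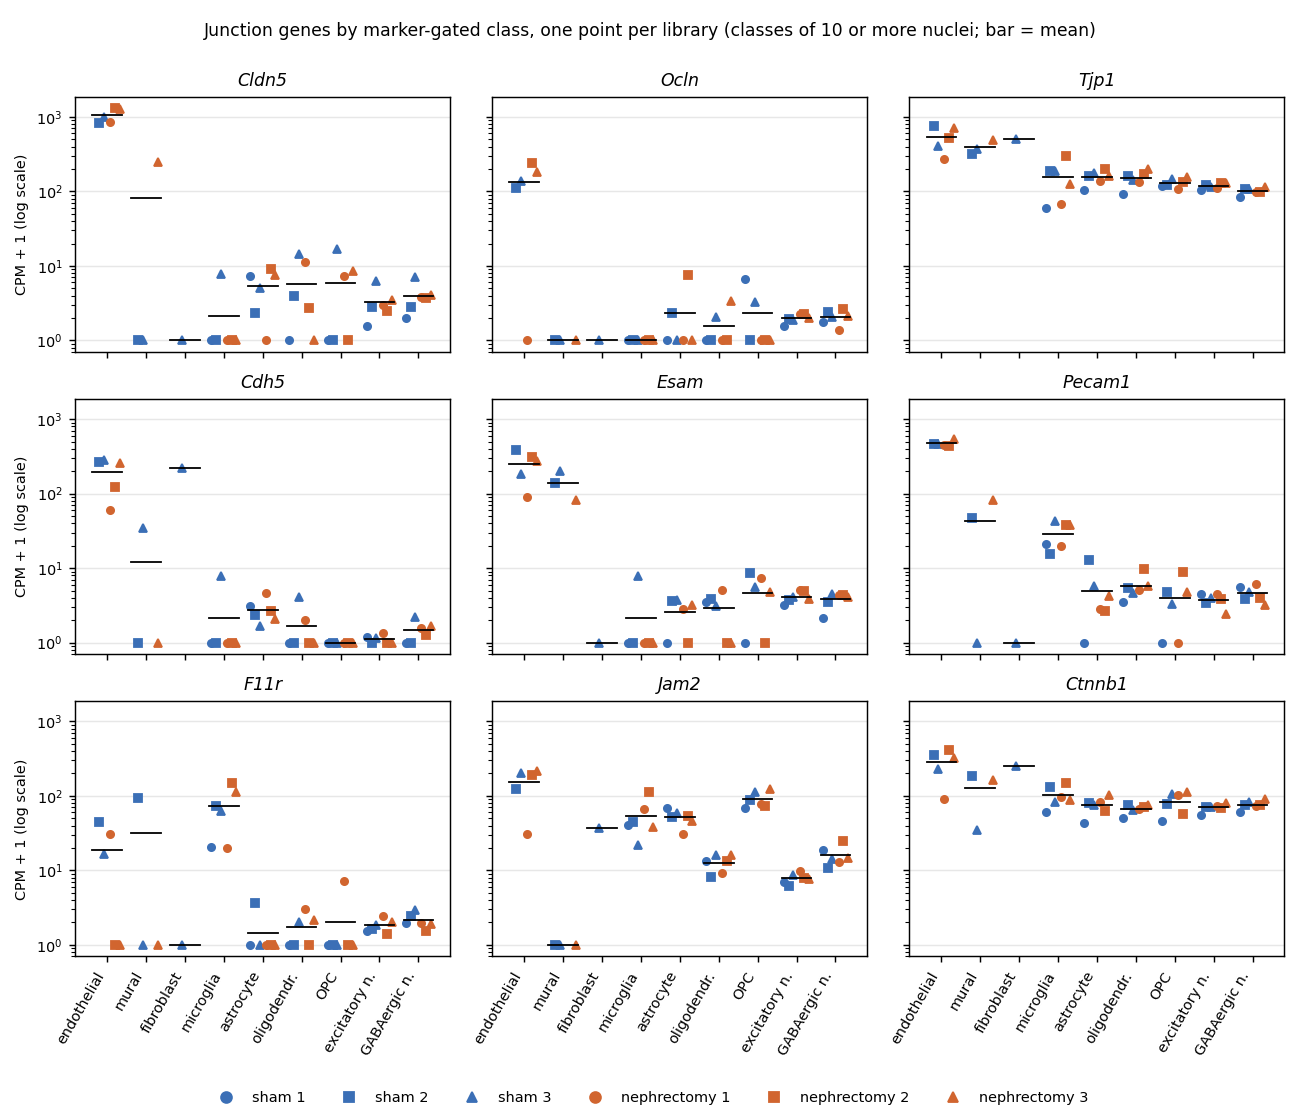
Level of each junction gene (CPM + 1, log axis) in 9 marker-gated classes, with 1 point per library that held at least 10 nuclei of the class (blue sham, orange nephrectomy) and a bar at the mean. Cldn5, Ocln and Pecam1 stand far above the other classes in endothelial-like nuclei, Tjp1 and Ctnnb1 vary within about 1 order of magnitude, and F11r is highest in microglia-like nuclei.

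Among the membrane proteins of the tight junction, Cldn5 stood at 824 and 1008 CPM in sham 2 and 3 and at 866, 1296 and 1266 CPM in nephrectomy 1, 2 and 3. The 9 nuclei of sham 1 gave 2139.6 CPM. In the 6 libraries, excitatory neuron-like nuclei held Cldn5 at 0.557 to 5.20 CPM and microglia-like nuclei at 0 to 6.89 CPM. No library of these classes came near an endothelial value. The fitted log2 difference from the mean of the 8 other classes was 8.06 ± 0.25 (SE, adjusted p = 1.46e-33). From the 6-class mean it was 7.80 ± 0.20 (adjusted p = 6.32e-37), but there Cldn5 passed the filter only through the endothelial-like sums. That 6-class call adds no support. Over pooled UMIs the level was 460-fold that in excitatory neuron-like nuclei (exact 95% interval 357 to 601) and 29.1-fold that in mural-like nuclei (9.90 to 142), where 3 UMIs were counted, all in nephrectomy 3 (245 CPM). Such intervals cover counting error only.

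Ocln was measured at 109.9 and 136 CPM in sham 2 and 3, and at 0, 239.9 and 184 CPM in nephrectomy 1, 2 and 3. The 0 of nephrectomy 1 rests on 33487 UMIs and allows up to 89.6 CPM. Every other class stayed at or below 6.56 CPM in every library, although the 0 of the mural-like sums in sham 2, sham 3 and nephrectomy 3 allows up to 137, 100.5 and 245 CPM. Mural-like, fibroblast-like and microglia-like nuclei had no Ocln UMI, so that over pooled UMIs the endothelial-like level was at least 22.8-fold higher than in microglia-like nuclei, with a floor of 3 UMIs over the class. The fitted log2 difference from the 8 other classes was 7.86 ± 0.54 (adjusted p = 5.75e-21). This call adds no support, since Ocln passed the filter only through the endothelial-like sums.

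Pecam1 was the steadiest member among the endothelial-like libraries, with 462 and 467 CPM in sham 2 and 3 and 448, 432 and 541 CPM in nephrectomy 1, 2 and 3. Outside them it was highest in mural-like nuclei, at 45.7, 0 and 81.7 CPM in sham 2, sham 3 and nephrectomy 3 from 2 UMIs in all. Microglia-like nuclei followed with 28.2 ± 11.7 CPM (SD, n = 6), and UMIs of Pecam1 were present there in each of the 6 libraries (14 in all). The remaining classes with 6 libraries had means of 2.79 to 4.68 CPM. The endothelial-like level exceeded that of microglia-like nuclei by 4.04 ± 0.34 on the log2 scale (adjusted p = 2.96e-17).

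Esam and Cdh5 each had 1 further class. Esam, an adhesion molecule of endothelial tight junctions, was at 385 and 184 CPM in sham 2 and 3 and at 89.6, 312 and 276 CPM in nephrectomy 1, 2 and 3. Mural-like nuclei had 137, 201 and 81.7 CPM in sham 2, sham 3 and nephrectomy 3, values that overlap the endothelial range. The difference of these classes was 1.22 ± 0.48 (log2, adjusted p = 0.176) and did not pass the test. The classes with 6 libraries had Esam means of 1.15 to 3.71 CPM.

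Cdh5 was at 264 and 283 CPM in sham 2 and 3 and at 59.7, 120.0 and 255 CPM in nephrectomy 1, 2 and 3. The single fibroblast-like sum, 19 nuclei of sham 3, stood at 217 CPM from 6 UMIs, inside the endothelial range, and the pooled fibroblast-like nuclei gave 11 UMIs. The endothelial-like minus fibroblast-like difference was 1.05 ± 0.71 (log2, adjusted p = 0.739). In every test against this 1 sum, the sum is assumed to vary as the other classes do. In the same pooled fibroblast-like nuclei the endothelial markers Tie1 and Podxl were at 14.2 CPM each, below the floor of 42.6 CPM. They were at 179 and 348 CPM in endothelial-like nuclei. The other endothelial markers kept aside, Erg, Emcn and Vwf, were at most at 0.555, 24.6 and 24.6 CPM in any other class. Cldn5, Ocln, Esam and Pecam1 had 0 UMIs in the pooled fibroblast-like nuclei, which allows up to 42.6 CPM. Whether endothelial RNA contributed to that Cdh5 signal was not tested. Oligodendrocyte precursor-like nuclei had no Cdh5 UMI in any library, and excitatory neuron-like nuclei 4 UMIs among 29539917.

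The scaffold gene Tjp1 was expressed in every class. In endothelial-like nuclei it stood at 747 and 404 CPM in sham 2 and 3 and at 269, 528 and 705 CPM in nephrectomy 1, 2 and 3. Its next levels were 506 CPM in the fibroblast-like sum and 320, 369 and 490 CPM in the 3 mural-like sums, so these classes overlapped the endothelial range. Astrocyte-like, microglia-like and oligodendrocyte-like nuclei followed at 157 ± 33.3, 153 ± 89.2 and 149 ± 36.8 CPM (SD, n = 6), which do not differ beyond their spread. Oligodendrocyte precursor-like, excitatory neuron-like and GABAergic neuron-like nuclei stood at 131 ± 18.7, 118 ± 10.5 and 101 ± 10.8 CPM. The endothelial-like level was higher than the 8-class mean by 1.39 ± 0.14 and than the 6-class mean by 1.78 ± 0.14 (adjusted p = 3.40e-13 and 7.33e-17). The difference from mural-like nuclei was 1.06 ± 0.31 (adjusted p = 0.0336) and was lost in 6 of 13 alternatives, among them those without sham 2 (adjusted p = 0.516) and without nephrectomy 3 (adjusted p = 0.233). That from the fibroblast-like sum was 0.45 ± 0.43 (adjusted p = 0.815).

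Ctnnb1, which serves adherens junctions and Wnt signalling, showed the same small step. It stood at 352 and 231 CPM in sham 2 and 3 and at 89.6, 408 and 317 CPM in nephrectomy 1, 2 and 3. The nephrectomy 1 value, from 3 UMIs, lay within the range of several other classes. The single fibroblast-like sum gave 253 CPM. Mural-like, microglia-like and oligodendrocyte precursor-like nuclei gave means of 127, 100.3 and 82.0 CPM, and the 4 other classes 66.2 to 74.9 CPM, with SDs of 8.16 to 81.1 over libraries, so neighbouring classes did not differ beyond their spread. The fitted endothelial-like difference was 1.38 ± 0.18 against 8 classes and 1.62 ± 0.16 against 6 (adjusted p = 1.26e-09 and 7.76e-13), and 0.50 ± 0.55 against the fibroblast-like sum (adjusted p = 0.835).

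The junctional adhesion molecules had other leading classes beside endothelium. Jam2 was at 121 and 205 CPM in sham 2 and 3 and at 29.9, 192 and 214 CPM in nephrectomy 1, 2 and 3. Oligodendrocyte precursor-like nuclei came next with 67.0 to 123 CPM (89.1 ± 22.7, SD, n = 6), above the endothelial value of nephrectomy 1. Microglia-like and astrocyte-like nuclei had 53.0 ± 32.0 and 50.6 ± 12.8 CPM and did not differ beyond their spread. GABAergic neuron-like, oligodendrocyte-like and excitatory neuron-like nuclei had 9.75 to 23.7, 7.25 to 15.2 and 5.18 to 8.85 CPM. No UMI was counted in mural-like nuclei, which allows up to 36.9 CPM over the pooled class and more in each single sum. The endothelial-like level exceeded oligodendrocyte precursor-like nuclei by 0.68 ± 0.26 (log2, adjusted p = 0.0478), a call lost in 5 of 15 alternatives, among them the sums without sham 2 (adjusted p = 0.0790), without sham 3 (adjusted p = 0.182) and without nephrectomy 3 (adjusted p = 0.0796). It exceeded astrocyte-like nuclei by 1.28 ± 0.25 (adjusted p = 2.89e-05).

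F11r was the exception in rank. It had 9 UMIs in the 312 endothelial-like nuclei, at 44.0 and 15.7 CPM in sham 2 and 3 and at 29.9, 0 and 0 CPM in nephrectomy 1, 2 and 3. Microglia-like nuclei held 30 UMIs, at 19.8, 71.9 and 62.0 CPM in sham 1, 2 and 3 and 18.9, 148 and 113 CPM in nephrectomy 1, 2 and 3. The ranges overlap at their ends. The fitted difference, endothelial-like minus microglia-like, was -1.93 ± 0.60 on the log2 scale (adjusted p = 0.0165), the single case of the 9 genes in which endothelial-like nuclei were called lower than another class; 7.80% of genes were called lower than in microglia-like nuclei. The call was lost in 8 of 15 alternatives, among them those without sham 3, nephrectomy 2 or nephrectomy 3 (adjusted p = 0.134, 0.103 and 0.286). Against the mean of the 8 classes F11r was higher by 3.04 ± 0.95 (adjusted p = 0.0205). That call was lost without sham 2 (adjusted p = 0.119), without sham 3 (adjusted p = 0.0973) and in 2 further alternatives. Within this mean, the difference was -0.20 ± 1.28 from mural-like nuclei. It was 7.35 ± 7.01 from the fibroblast-like sum, which had 0 F11r UMIs. F11r was called higher than in the neuron-like, astrocyte-like, oligodendrocyte-like and oligodendrocyte precursor-like classes.

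Taken class by class, the number of the 9 genes called higher in endothelial-like nuclei was 9 against astrocyte-like, oligodendrocyte-like, oligodendrocyte precursor-like, excitatory neuron-like and GABAergic neuron-like nuclei, for which 9.39%, 9.88%, 9.56%, 13.5% and 12.6% of all genes were called higher. It was 8 against microglia-like nuclei (7.28% of all genes), 7 against mural-like nuclei (2.61%) and 3 against the fibroblast-like sum (0.494%). The 3 were Cldn5, Esam and Pecam1, each with 0 UMIs in that sum, which stands alone without a replicate. These counts include Ocln except against the fibroblast-like sum. The exceptions against mural-like nuclei were Esam and F11r. Of the 7 called higher there, Ocln and Jam2 had 0 UMIs in the pooled mural-like nuclei, Cdh5 had 1, Pecam1 2 and Cldn5 3.

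The share of nuclei with at least 1 UMI of a gene was set beside that in other classes. Of the 312 endothelial-like nuclei, 66.7% had a Cldn5 UMI (exact 95% interval 61.1 to 71.9), at a median of 1075 UMIs per nucleus. The share was 1.25% in excitatory neuron-like nuclei at a median of 4656 UMIs, and 0.254% in microglia-like nuclei at a median of 973.5. After thinning to 1000 UMIs, which left 172 endothelial-like and 5082 excitatory neuron-like nuclei, the shares were 55.2% and 0.354%. A UMI of at least 1 of Cldn5, Ocln, Cdh5, Esam and Pecam1 was present in 277 endothelial-like nuclei (88.8%) and in 265 of 5433 excitatory neuron-like nuclei (4.88%). For Tjp1, which was expressed in every class, the shares were 48.7% and 41.1% before thinning and 41.9% and 11.1% after it.

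Each junction gene had a larger share of its UMIs in endothelial-like nuclei than all genes together did. Endothelial-like nuclei held 0.315% of the UMIs of all genes, but 33.8% of those of Cldn5 (503 of 1488, Wilson 95% interval 31.4 to 36.2) and 35.3% of those of Cdh5 (119 of 337). They held 24.0% of the UMIs of Ocln, 24.0% of Pecam1 and 16.6% of Esam, and 1.45% and 1.11% of those of Tjp1 and Ctnnb1. The shares of F11r and Jam2 were 3.44% and 3.41%, and microglia-like nuclei held 11.5% of F11r. Nuclei without a class held 48.9% to 59.2% of the UMIs of each gene and 52.9% of those of all genes.

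**Figure D2:**
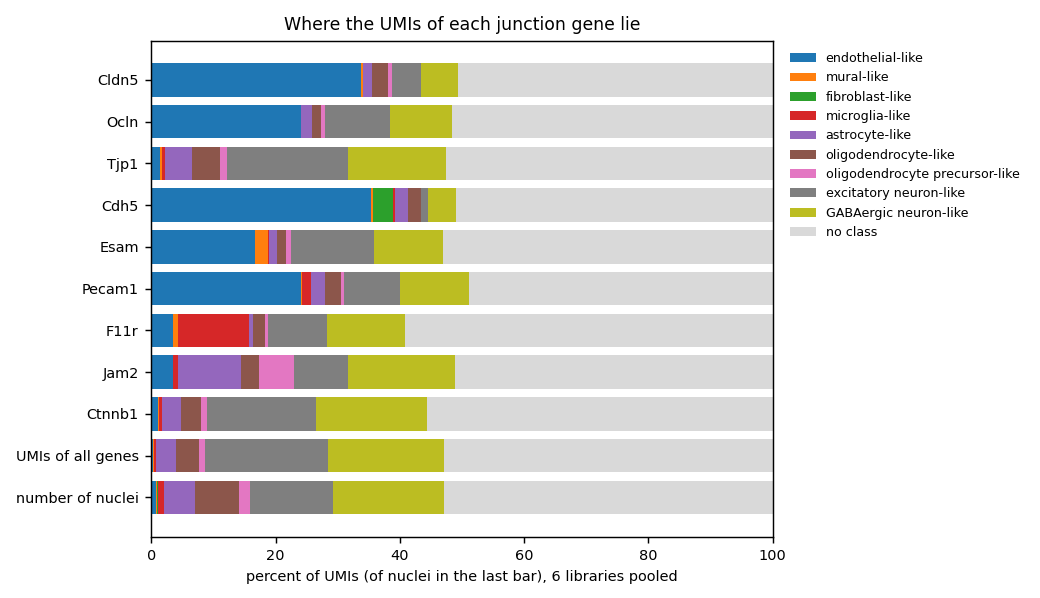
Share of the UMIs of each junction gene found in each class over the 6 pooled libraries, with the UMIs of all genes and the number of nuclei in the last bars for reference (percent). Endothelial-like nuclei (left segment) hold 33.8% of Cldn5 and 35.3% of Cdh5 UMIs but 0.767% of nuclei, and about as much of every gene lies in nuclei without a class as of all UMIs.

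In neurons the UMIs of Cldn5, Esam, Pecam1 and Cdh5 did not keep the proportions of endothelium. For every 100 Cldn5 UMIs, endothelial-like nuclei held 23.5 of Esam, 44.5 of Pecam1 and 23.7 of Cdh5. Excitatory neuron-like nuclei held 136, 122 and 5.80, from 94, 84 and 4 UMIs against 69 of Cldn5. GABAergic neuron-like nuclei held 89.8, 118 and 17.0. The source of these UMIs was not tested.

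Levels of the 9 genes across the 45 sums of library and class moved together to different extents. On log2(CPM + 1), Pearson's r was 0.75 for Cldn5 and Esam, 0.72 for Cldn5 and Ocln, 0.71 for Cldn5 and Pecam1 and 0.69 for Cldn5 and Cdh5. It was 0.75 for Tjp1 and Ctnnb1 and 0.76 for Tjp1 and Cdh5. F11r stood apart, with r between -0.03 and 0.30 with all but Pecam1 (0.51), and Jam2 had r of at most 0.46. The sums share libraries and depth, and these values describe them only.

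Among 13113 genes, those with a pattern most like Cldn5 were Rflnb (r = 0.89), Slc38a5 (0.87), an amino acid transporter, and Foxq1 (0.87), a forkhead transcription factor. For Cdh5 they were Uaca (0.91), Fgd5 (0.89), an exchange factor of endothelial cells, and Klf2 (0.88), a flow-responsive transcription factor. For Tjp1 they were Slc22a8 (0.90), an organic anion transporter, Tm4sf1 (0.85) and Hspb1 (0.84), a small heat shock protein. For Ctnnb1 they were Nostrin (0.80), which binds endothelial nitric oxide synthase, Srpr (0.78) and Abcg2 (0.78), an efflux transporter of the barrier. For 8 of these 12 genes the fibroblast-like sum was the highest outside endothelium, from 36.1 CPM for Fgd5 to 325 CPM for Abcg2. It lay above the mean of the endothelial-like libraries for Uaca, Slc22a8 and Srpr, at 217, 289 and 253 CPM against 120, 274 and 167 CPM. That sum holds 19 nuclei of sham 3, where 1 UMI of Jam2 gave 36.1 CPM, so these levels rest on few UMIs. Their order was not tested.

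In a wider list of 42 junction genes, 33 passed the filter, and 10 were higher and 1 was lower in endothelial-like nuclei than in the mean of the 8 classes, where 9.07% of all genes were higher and 1.89% lower. Of the 31 that passed through the other classes alone 8 were higher, with a median log2 difference of 0.36 beside 0.28 over all such genes. The largest at 20 CPM or more were Icam2, an endothelial adhesion molecule (7.82 ± 0.63), Lsr, which builds contacts where 3 cells meet (6.21 ± 0.48), Cgnl1, a cingulin-like linker of junctions to the cytoskeleton (4.70 ± 0.27), and Magi3, a scaffold (1.85 ± 0.45). Adjusted p-values were 1.15e-17, 4.50e-19, 8.75e-27 and 0.00157. Icam2 and Lsr passed the filter only through the endothelial-like sums, where they are high, so their calls add no support. Over pooled UMIs Cgnl1 was at 265 CPM in endothelial-like and 1.56 CPM in excitatory neuron-like nuclei. The one lower gene was Ctnna2, the α-catenin of neurons, at -1.42 ± 0.44 (adjusted p = 0.0223), with 34.2 CPM in endothelial-like and 149 CPM in excitatory neuron-like nuclei. Jup, a paralogue of Ctnnb1 named after its values were seen, was higher by 1.67 ± 0.38 (adjusted p = 0.000581). Against the 6 classes with all libraries, 10 were higher and 3 lower of 31, and 12.2% of all genes were higher and 8.25% lower. Of these 31, 28 passed the filter through the other classes alone, and Cgnl1, Icam2 and Lsr did not.

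Of 25 genes of the Wnt pathway in brain endothelium, in which β-catenin acts, all passed the filter and 18 were higher and 0 lower, against 9.07% and 1.89% of all genes. Of the 20 that passed through the other classes alone 13 were higher, with a median log2 difference of 3.04 beside 0.28 over all such genes. The transcription factors Sox17, Foxq1 and Sox7 were among the largest, at 9.46 ± 0.46, 9.32 ± 0.45 and 7.50 ± 0.79, with adjusted p-values of 2.28e-28, 3.23e-28 and 2.14e-12. Sox17, Foxq1 and Sox7 passed the filter only through the endothelial-like sums, where they are high, so their calls add no support. Sox17 stood at 226 CPM in endothelial-like and 0.203 CPM in excitatory neuron-like nuclei. The list was drawn up for endothelium, so its direction is no independent evidence.

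Between surgery groups, none of the junction genes was called different in endothelial-like nuclei. The test compared sham 2 and 3 with the 3 nephrectomy libraries, and 8 of the 9 genes passed its filter (F11r did not). Of 2509 genes 2 were called, 0.0797%, both higher after nephrectomy, and 97 had an unadjusted p under 0.05. DESeq2 called 0. The 2 genes, named after their values were seen, were Vip, a neuropeptide of interneurons, at 55.0 and 15.7 CPM in sham 2 and 3 and 29.9, 216 and 480.0 CPM in nephrectomy 1, 2 and 3 (3.24 ± 0.60, adjusted p = 0.00469), and Chchd10, a mitochondrial protein (2.25 ± 0.54, adjusted p = 0.04996). The number of genes called higher ran from 0 to 3 over 18 alternatives.

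The values already given for Cldn5 overlap between groups: the mean was 916 ± 130 CPM in sham (SD, n = 2) and 1143 ± 240.0 CPM in nephrectomy (n = 3). Its log2 fold change, nephrectomy over sham, was 0.33 ± 0.31, with a 95% interval of -0.28 to 0.93. With sham 1 included, in an alternative chosen after the data were seen, it was 0.01. Ocln gave 0.31 ± 0.49 and an interval of -0.66 to 1.27. Pecam1 had 464 ± 3.96 and 474 ± 59.1 CPM and a fold change of 0.05 ± 0.36 (-0.66 to 0.77).

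Cdh5 was the one junction gene whose groups did not overlap. Sham 2 and 3 had 264 and 283 CPM and the 9 nuclei of sham 1 gave 664 CPM, whereas nephrectomy 1, 2 and 3 had 59.7, 120.0 and 255 CPM, from 2, 5 and 25 UMIs. The highest nephrectomy library lay just under the lowest sham library. Groups that do not overlap were found in 17.4% of the genes tested, 8.89% lower after nephrectomy. The log2 fold change was -0.68 ± 0.42 (95% interval -1.50 to 0.14, unadjusted p = 0.105 in edgeR, adjusted p = 0.996) and did not pass the test. Its sign was the same in the 16 alternatives that gave a value, which ran from -1.54 to -0.32.

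Esam, Tjp1, Jam2 and Ctnnb1 had log2 fold changes of -0.17 ± 0.41, -0.08 ± 0.36, -0.05 ± 0.44 and 0.01 ± 0.39, with adjusted p-values of 0.996 for the first 3 and 0.998 for Ctnnb1. In each, nephrectomy 1 was the lowest of the 5 tested libraries. That library had 18 endothelial-like nuclei, and in it the summed astrocyte markers kept aside (4 of 4 detected) were at 328 CPM and the excitatory neuron markers (3 of 3 detected) at 239 CPM, above the 0 to 168 and 0 to 144 CPM of the other 5 libraries. The neuron value rests on 8 UMIs, and a list of 12 neuronal genes (11 detected) was at 5704 CPM, inside the 4501 to 13570.2 CPM of the others. The endothelial markers kept aside (5 of 5 detected) were at 747 CPM there, below the 812 to 1079.6 CPM of the other libraries, whereas the 12 endothelial markers of the gate (12 detected) were at 12064 CPM, inside 11596 to 20584 CPM. The part of this RNA in the results was not tested. Without nephrectomy 1 the fold changes of Esam, Tjp1 and Jam2 turned to 0.10, 0.17 and 0.26.

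**Figure D3:**
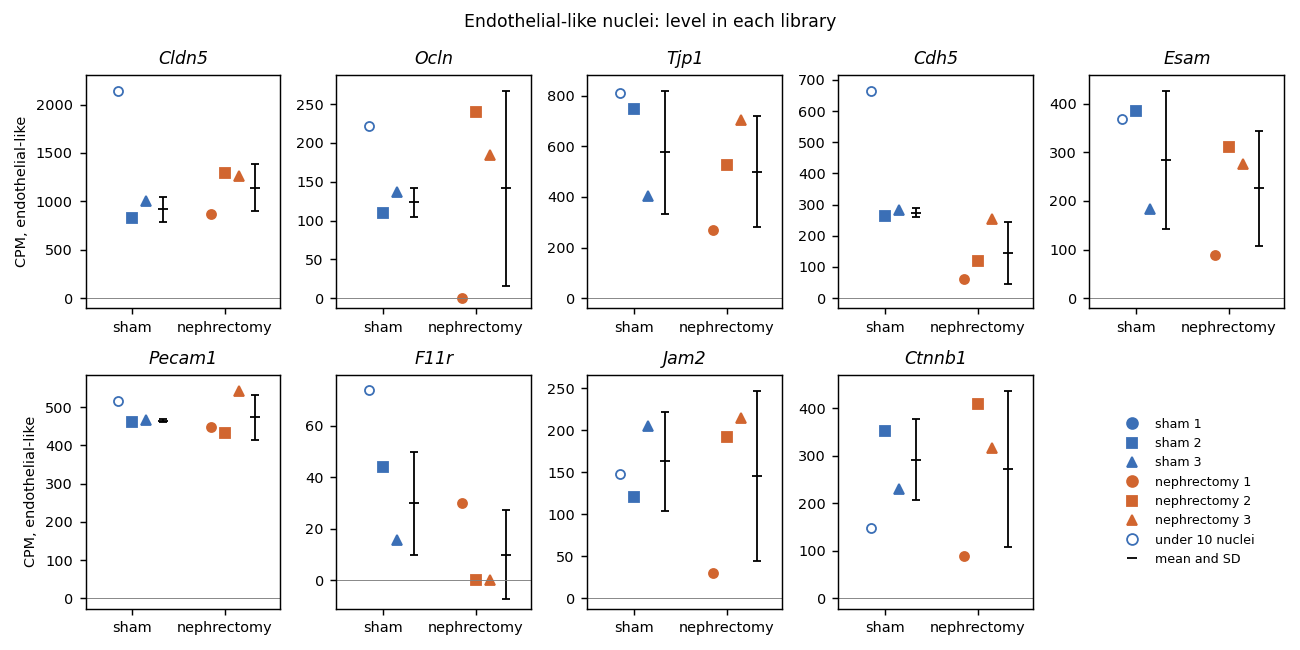
Level of each junction gene in endothelial-like nuclei (CPM) for each sham (blue) and nephrectomy (orange) library, with the mean and SD over libraries that held at least 10 nuclei (sham n = 2, nephrectomy n = 3). The open symbol is sham 1 with 9 nuclei, which entered no test; the groups overlap for every gene but Cdh5.

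Fewer vascular nuclei and less RNA per vascular nucleus cannot be told apart where all nuclei are summed. There Cldn5 stood at 3.13, 8.95 and 14.0 CPM in sham 1, 2 and 3 and at 6.40, 10.8 and 13.1 CPM in nephrectomy 1, 2 and 3. Cdh5 stood at 0.751, 3.13 and 3.55 CPM in sham and 1.09, 1.92 and 2.47 CPM in nephrectomy libraries, and Tjp1 at 94.6, 137 and 122 CPM and 99.9, 134 and 135 CPM. The groups overlap for each of these genes, sham 1 being the lowest library in each, and these sums were not tested.

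The wider lists were not called either in endothelial-like nuclei. Of the 42 junction genes 10 passed the filter, 4 with a higher and 6 with a lower fitted level after nephrectomy, and 0 passed the test (median log2 -0.09, against -0.01 over all genes). The 2 of lowest p were Cdh2, which encodes N-cadherin (-0.80 ± 0.47), and Ctnnd1, which encodes p120-catenin (-0.49 ± 0.50). Of the 25 Wnt pathway genes 15 passed the filter and 0 passed the test, with a median of 0.16. Tnfrsf19 (0.89 ± 0.47) and the receptor Fzd4 (-0.69 ± 0.43) had the lowest p. All 4 had adjusted p = 0.996.

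In the other classes, all with 3 sham and 3 nephrectomy libraries, 0 genes were called by edgeR in astrocyte-like (9475 tested), oligodendrocyte-like (9415), oligodendrocyte precursor-like (5204), microglia-like (1618), excitatory neuron-like (14402) and GABAergic neuron-like nuclei (14542), so percent called was 0 in each. In the same order 429, 376, 230, 77, 873 and 706 genes had an unadjusted p under 0.05. DESeq2 called 1 gene in excitatory neuron-like nuclei and 0 in the others. Of the junction genes 3, 2, 3, 1, 6 and 6 passed the filters.

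Tjp1 and Ctnnb1 were best measured in neurons. In excitatory neuron-like nuclei Tjp1 had 102, 121 and 115 CPM in sham 1, 2 and 3 and 112, 128 and 129 CPM in nephrectomy 1, 2 and 3. The groups overlap, and the log2 fold change was 0.09 ± 0.12 (95% interval -0.18 to 0.35). Ctnnb1 had 54.0, 69.2 and 70.6 CPM in sham and 72.4, 68.1 and 78.7 CPM in nephrectomy libraries there, with a fold change of 0.14 ± 0.13 (-0.16 to 0.44). In GABAergic neuron-like nuclei the values were 0.01 ± 0.14 and 0.07 ± 0.15.

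Jam2 in astrocyte-like nuclei had the lowest p of a junction gene outside endothelium. It stood at 68.2, 50.6 and 57.2 CPM in sham 1, 2 and 3 and at 29.7, 52.5 and 45.4 CPM in nephrectomy 1, 2 and 3. The groups overlap by sham 2 and nephrectomy 2. The log2 fold change was -0.50 ± 0.28 (95% interval -1.10 to 0.10, adjusted p = 0.936), and under the stricter gate it was 0.01. In oligodendrocyte-like nuclei Tjp1 changed by 0.31 ± 0.24 (-0.22 to 0.84, adjusted p = 0.997).

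**Figure D4:**
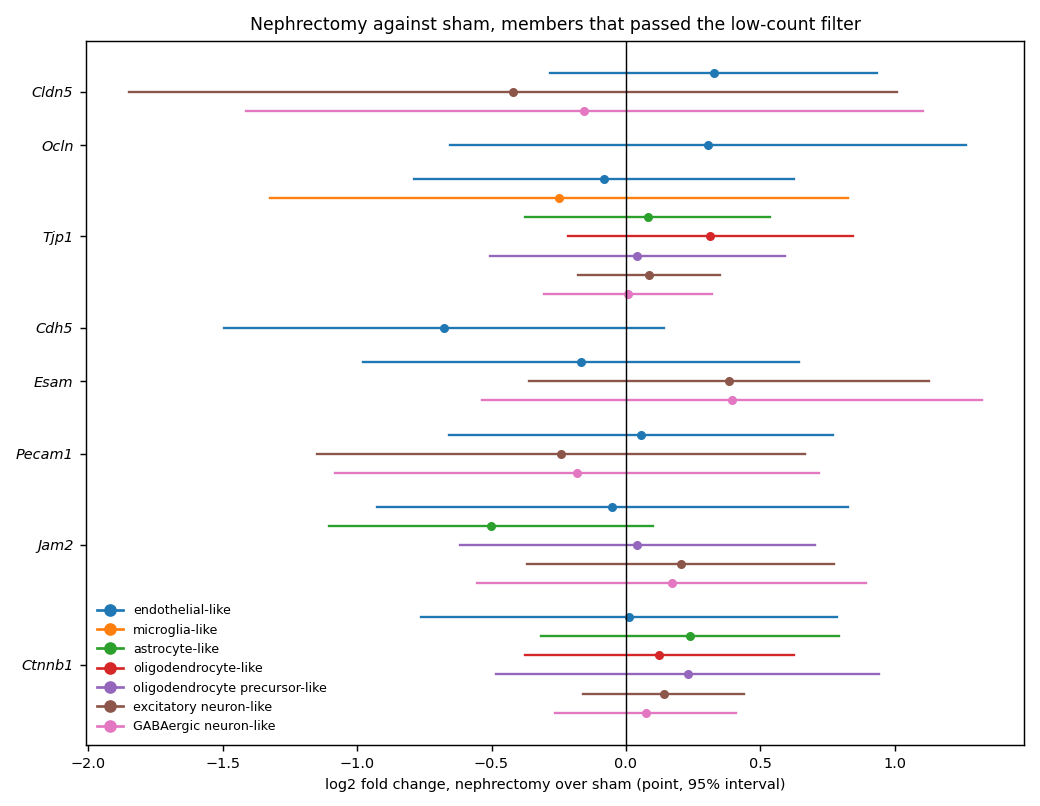
Log2 fold change, nephrectomy over sham, with its 95% interval, for each junction gene in each class where it passed the low-count filter. Every interval crosses 0; the narrowest belong to Tjp1 and Ctnnb1 in the neuron classes and the widest to Cldn5 there.

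Whether the nephrectomy effect in endothelial-like nuclei differed from that in other classes was tested as an interaction. Of 13113 genes 0 were called by edgeR against the mean of 7 other classes (0%), with 426 at an unadjusted p under 0.05. The difference was -0.12 ± 0.29 for Tjp1, -0.21 ± 0.36 for Ctnnb1, 0.89 ± 0.97 for Esam and -0.28 ± 0.55 for Pecam1 (log2, adjusted p = 1 for each). The Esam value rests on microglia-like sums with 1 UMI in sham and 0 in nephrectomy libraries. For the 5 other genes the fit gave no usable standard error, and no value is given. Against the 2 neuron classes alone, an alternative chosen after the data were seen, 7 of 14989 genes were called (0.0467%) and no junction gene was. Cldn5 gave 0.75 ± 0.33 there (adjusted p = 0.640) and Cdh5 -0.64 ± 1.15 (adjusted p = 0.964).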

How the data were processed

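Each library has a matrix of UMI counts deposited by the authors, mapped to mm10 with intronic reads kept, per the labels' protocols. Sources differ on Cell Ranger: 3.0 per the labels' protocols, 2.1.1 per the submitters' processing notes and 6.0.1 per the file headers. Depth was 15641877 to 40899733 UMIs per library over kept nuclei. UMIs were summed per library and marker-gated class where at least 10 nuclei were present, and tested across all genes with edgeR 4.0.16 (TMM, filterByExpr, robust quasi-likelihood test, two-sided, Benjamini-Hochberg, threshold 0.05), with library as covariate between classes. Fits were tested on simulated data. Doublets were removed only by the gate. Alternatives covered size factors, filters, gates, called doublets (a score from simulated doublets, 0.8% per 1000 barcodes), single libraries, DESeq2 1.42.0 and the replicate number. The 9 genes and all lists were chosen with earlier results of these data known. Named genes of the wider lists were up to 4 per direction that passed with at least 20 CPM, or else the 2 of lowest p. Floors are 3 UMIs. RefSeq gave promoters, GENCODE M21 positions.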

Additional observations from a re-analysis of the deposited data

Results flagged for a closer look

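Nuclei that met no class, or more than 1, entered no comparison, and every one of the 9 junction genes had UMIs there above what a count of 0 allows. They were 21540 nuclei with a median of 1522.5 UMIs: 11749 reached the minimum of no class, 6778 that of at least 2, and 3013 that of 1 class without a clear lead over the rest. Pooled over 6 libraries, the levels were 9.60 CPM for Cldn5, 1.83 for Ocln, 119 for Tjp1 and 2.19 for Cdh5. Esam was at 4.80 CPM, Pecam1 at 5.81, F11r at 1.97, Jam2 at 15.7 and Ctnnb1 at 82.6. For every 100 Cldn5 UMIs these nuclei held 22.8 of Cdh5, against 23.7 in endothelial-like nuclei, and 50.0 of Esam against 23.5. Which cells these UMIs came from was not tested.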

How the results depend on the processing

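The endothelial-like call of Cldn5, Ocln, Tjp1, Cdh5, Esam, Pecam1, Jam2 and Ctnnb1 over the mean of other classes kept its direction and passed the threshold in every alternative that gave a value (13 for Ocln, 15 for each other). The Ocln call adds no support, as Ocln passed the main filter only through the endothelial-like sums. The same holds for Cldn5, Cdh5 and Esam in the alternative against 6 classes. With at least 1000 genes per nucleus, no library held more than 4 mural-like or 8 fibroblast-like nuclei. These were too few for a sum. The fibroblast-like sum is also absent under the stricter gate, without sham 3 and in nephrectomy libraries only. Through which sums Cldn5, Cdh5 and Esam passed the filter in these alternatives was not tested, so their calls there add no support. No junction gene passed the threshold between surgery groups in any alternative. Of the 5 libraries tested there, 4 had 63 or fewer endothelial-like nuclei, which limits precision. The part of depth in the lack of calls was not tested. Fold changes near 0 changed sign.

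Genes higher in endothelial-like nuclei (1395) were 554 with at least 1000 genes per nucleus and 772 in nephrectomy libraries only. Genes lower (291) were 170 and 105 there, 82 in sham libraries only, 1014 against the 6 classes, and 130 to 251 leaving out 1 library.

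Between groups, genes higher in endothelial-like nuclei (2) were 1 with no filter, without called doublets, and with sham 1 in place of nephrectomy 1. They were 0 under the stricter gate, the gate without transporters, at least 1000 genes, DESeq2, thinning and every library kept. Genes lower (0) were 2 with no filter and 3 without sham 3 and nephrectomy 1. Leaving out 1 library gave 0 to 2 higher and 0 to 4 lower. Sham 1 has no such value, as it was not in the fit.

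Log2 fold changes that changed sign in endothelial-like nuclei follow. With no filter, Pecam1 was -0.16 and Ctnnb1 -0.20. Under the stricter gate Tjp1 was 0.0044, Pecam1 -0.076 and Jam2 0.15, and without transporters Pecam1 was -0.13. With at least 1000 genes Tjp1 was 0.73. Without doublets Ctnnb1 was -0.015, and by DESeq2 -0.031. Without sham 3 and nephrectomy 1 Jam2 was 0.78, and thinned, Esam was 0.46. With at least 20 nuclei Tjp1, Esam and Jam2 were 0.17, 0.10 and 0.26, and with sham 1 in place of nephrectomy 1 they were 0.091, 0.059 and 0.29. Leaving out 1 library, Tjp1 ran from -0.47 to 0.33, Esam from -0.65 to 0.32, Pecam1 from -0.052 to 0.13, Jam2 from -0.51 to 0.45 and Ctnnb1 from -0.28 to 0.31.

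The labels number replicates in both groups but do not pair them. Same-numbered endothelial-like sums had deviations correlated at 0.07. Only replicates 2 and 3 were shared there, so differing numbers gave -0.07 by construction, and the value cannot speak to pairing. In the classes with all libraries r ran from -0.34 to 0.32 for the same number and from -0.40 to 0.37 for differing numbers. With the replicate number as a block, 0 genes were higher in endothelial-like nuclei, Tjp1, Esam and Jam2 turned to 0.23, 0.18 and 0.24, and 3 genes were lower in microglia-like nuclei.

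In other classes, where 0 genes were called, no filter gave 1 higher in astrocyte-like and 3 lower in microglia-like nuclei. At least 1000 genes gave 1 higher in oligodendrocyte precursor-like and 5 higher in microglia-like nuclei. DESeq2 gave 1 higher in excitatory neuron-like nuclei. Without sham 3 and nephrectomy 1, oligodendrocyte precursor-like nuclei had 2 higher and 2 lower and microglia-like nuclei 1 lower. Leaving out 1 library gave 0 to 1 lower in the former and 0 to 2 in the latter. Under the stricter gate Jam2 in astrocyte-like nuclei was 0.0087.

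For the difference between classes, 1 gene was lower with no filter, 1 without doublets and 7 against neurons alone. Tjp1 turned to 0.047 with DESeq2 size factors, 0.027 without transporters and 0.73 with at least 1000 genes, where Ctnnb1 was 0.39 and Pecam1 0.92. Esam was -0.50 against neurons. Leaving out 1 library, Tjp1 ran from -0.62 to 0.28 and Ctnnb1 from -0.45 to 0.11. The cause was not tested for any of these.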
